A study of Mus musculus with 12 samples.

Results

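The genes Myo1e, Tgm5, Itga1 and Nexn, which are seldom named as striatal markers, had array probes with a far higher signal in striatum than in the other brain regions. They were chosen by their lead in striatum on these arrays, so the striatal lead is given below as a description and carries no test. The 4 genes have 7 probes among the 41174 gene probes of the array (4 of 16358 named genes), namely 3 for Myo1e, 2 for Itga1 and 1 each for Tgm5 and Nexn. All 7 were examined probe by probe. The arrays held RNA from striatum, olfactory bulb, hypothalamus, prefrontal cortex, hippocampus and amygdala of male mice of 12 weeks. Of the 12 arrays, 6 carried RNA of mice lacking interleukin-18 (IL-18 KO, here KO) and the others that of wild-type mice (WT). The strain was given as C57BL/6 for both genotypes, and the mice were F2 littermates from a cross of IL-18-/- males with C57BL/6J females. Interleukin-18 is a cytokine of the interleukin-1 family, and the deletion is carried in all cells of the animal. For each region and genotype, RNA of 5 mice was pooled in equal amounts on 1 array and there is no replicate within a group. The brain was perfused with saline and cut into slices before the regions were taken.

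The striatum is the input nucleus of the basal ganglia and is made up mostly of inhibitory projection neurons, which receive dopamine from the midbrain and carry dopamine receptors of the D1 or D2 type. Myo1e encodes a class I myosin, a single-headed motor that links actin filaments to membranes and is best known from the podocytes of the kidney. Tgm5 encodes transglutaminase 5, an enzyme that cross-links proteins and is best known from the outer layers of the skin. Itga1 encodes the integrin alpha 1 subunit, which pairs with integrin beta 1 to form a receptor for collagens and laminins. Nexn encodes nexilin, an actin-binding protein of cell adhesions and of the Z-disc of heart muscle.

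The sequence before the annotated start of the gene is shown for Myo1e, Tgm5 and Itga1, as RefSeq gives it for assembly GRCm38.p6. Each of these genes has a probe that was highest in striatum and next in olfactory bulb. The other probes of Myo1e and Itga1 did not share this order. Each line holds 250 bases from 5′ to 3′ on the strand of the gene, and capitals mark matches to the searched motifs.
Myo1e, chr9:70207100-70207349, strand +: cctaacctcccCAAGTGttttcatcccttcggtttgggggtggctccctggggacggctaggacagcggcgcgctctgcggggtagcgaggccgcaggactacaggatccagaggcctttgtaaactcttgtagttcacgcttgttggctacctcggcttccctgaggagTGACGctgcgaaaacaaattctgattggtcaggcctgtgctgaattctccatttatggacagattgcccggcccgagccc
Tgm5, chr2:121085842-121086091, strand -: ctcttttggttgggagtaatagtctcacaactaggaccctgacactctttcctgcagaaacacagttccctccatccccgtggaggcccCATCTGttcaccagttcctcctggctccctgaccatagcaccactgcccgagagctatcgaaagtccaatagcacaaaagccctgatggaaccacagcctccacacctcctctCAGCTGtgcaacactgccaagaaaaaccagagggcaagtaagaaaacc
Itga1, chr13:115101965-115102214, strand -: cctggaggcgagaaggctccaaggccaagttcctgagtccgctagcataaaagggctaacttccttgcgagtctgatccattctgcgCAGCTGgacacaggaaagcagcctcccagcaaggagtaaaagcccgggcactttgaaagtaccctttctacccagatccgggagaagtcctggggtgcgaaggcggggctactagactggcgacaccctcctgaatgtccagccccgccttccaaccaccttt
Both strands were searched for the E-box CANNTG, for TGACG, which is the core of a cyclic AMP response element, and for TATAAA, the letters of the box bound by the general transcription factors. The search also covered GGGCGG, which is bound by Sp factors, AGGTCA, which is bound by nuclear receptors, TGACAG, which is bound by MEIS factors, and TGTTTAC, which is bound by forkhead factors. None of these motifs contains another. The Myo1e sequence held 1 E-box and 1 TGACG, the Tgm5 sequence held 2 E-boxes and the Itga1 sequence held 1 E-box. Among 32851 promoters of the same length, 66.2% held an E-box and 17.8% held TGACG. The other 5 motifs were not in these 3 windows. They were held by 12.4% (TATAAA), 32.7% (GGGCGG), 14.0% (AGGTCA), 15.9% (TGACAG) and 3.17% (TGTTTAC) of all promoters. The motif shared by all 3 sequences was thus also the most common one searched.

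Several features of the arrays bear on every value below. Il18, the gene deleted in KO mice, read lower on KO in 6 of 6 regions, by a log2 difference of -3.73 to -5.10. Each region lay on a slide of its own, so slide and region cannot be told apart. The striatum arrays were the dimmest, with a 75th percentile of the processed intensity of 208 (WT) and 272 (KO), while the highest, 768, was that of the amygdala KO array. Between 60.8% (striatum WT) and 81.3% (olfactory bulb WT) of the spots were well above background by the flag of the scanner software. Of 18 markers of striatal projection neurons, 16 were higher on both striatum arrays than on the 10 others, against 20.8% of all named genes, and their median striatal lead was 3.47 in log2. The array labelled amygdala WT carried markers of another region. The 13 measured markers of the hypothalamus were lower on amygdala KO than on amygdala WT by a median log2 difference of -3.52. The leads, the correlations outside striatum and the fits across regions and for striatum are therefore also given without the amygdala arrays. This holds for the probe of each member gene with the largest striatal lead. Other leads, correlations and fits below use all regions unless stated otherwise.

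Every level below is the log2 signal of a probe minus that of the 75th percentile of its own array, so that 0 is this percentile. For Myo1e, probe A_52_P149766 read 5.06 (WT) and 4.24 (KO) in striatum and 2.66 and 0.05 in olfactory bulb. It read -1.46 and -4.66 in amygdala, -2.24 and -2.02 in hypothalamus, -3.38 and -5.33 in prefrontal cortex, and -4.34 and -5.04 in hippocampus, again with WT first. Both striatum arrays lay above all others, the olfactory bulb arrays came next without overlapping any other region, and the amygdala WT array lay near the hypothalamus arrays rather than near amygdala KO. The prefrontal cortex KO and hippocampus KO arrays were not well above background. Fewer cells of a type and less RNA per cell cannot be told apart in such tissue samples.

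For Tgm5, probe A_51_P436736 read 3.50 (WT) and 2.01 (KO) in striatum and -1.29 and -2.38 in olfactory bulb. It read -3.52 and -4.08 in hippocampus, -3.44 and -4.88 in prefrontal cortex, -4.96 and -4.65 in hypothalamus, and -4.67 and -5.33 in amygdala. The order was again striatum, then olfactory bulb, then 4 regions whose arrays overlapped their neighbours in the order, with prefrontal cortex KO and amygdala KO not well above background.

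For Itga1, probe A_52_P518922 read 3.25 (WT) and 2.02 (KO) in striatum and 0.25 and -2.52 in olfactory bulb. It read -2.81 and -3.17 in hypothalamus, -2.61 and -5.42 in amygdala, -4.59 and -5.43 in hippocampus, and -4.89 and -5.70 in prefrontal cortex. Striatum and olfactory bulb led as for Myo1e, though olfactory bulb KO lay only just above amygdala WT. The amygdala WT array again lay beside the hypothalamus arrays. The KO arrays of prefrontal cortex, amygdala and hippocampus were not well above background.

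For Nexn, probe A_52_P367520 read 3.82 (WT) and 3.43 (KO) in striatum and was well above background on all 12 arrays. It read -1.92 and -2.01 in hippocampus, -2.25 and -2.09 in hypothalamus, -2.33 and -2.53 in olfactory bulb, -2.72 and -2.42 in prefrontal cortex, and -2.28 and -2.99 in amygdala. Outside striatum its levels spanned 1.07 in log2, against 7.99 for the leading Myo1e probe, 5.95 for that of Itga1 and 4.04 for Tgm5. Nexn was thus high in striatum and varied little elsewhere, while the probes of Myo1e and Tgm5 also set the olfactory bulb apart. For Itga1 the olfactory bulb WT array stood apart, but the KO array, at -2.52, lay close to amygdala WT at -2.61.

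**Figure D1:**
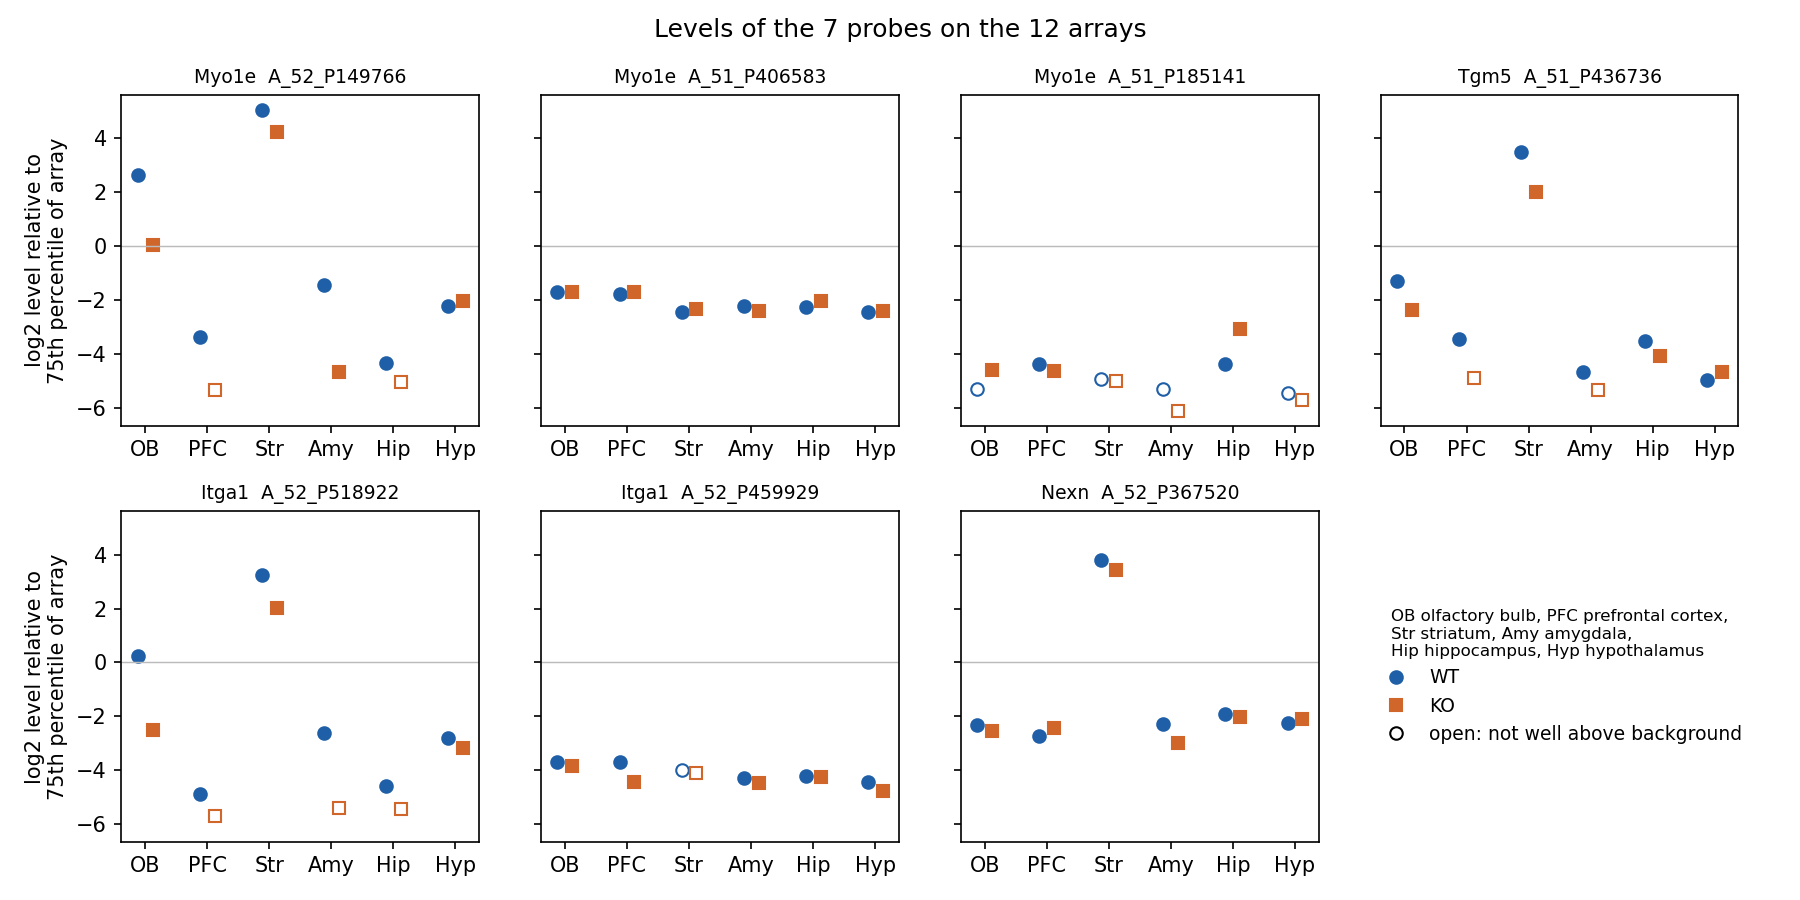
Level of each of the 7 probes (log2, with the 75th percentile of its array at 0) on the 12 arrays, with circles for WT, squares for KO and open symbols where the spot was not well above background. In 4 panels both striatum arrays lie above all others, and in the other 3, which show further probes of Myo1e and Itga1, they do not.

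The striatal lead, the mean of the 2 striatum arrays minus the mean of the 10 others, was 7.22 in log2 for Myo1e (149-fold), 6.68 for Tgm5 (102-fold), 6.33 for Itga1 (80.3-fold) and 5.98 for Nexn (63.1-fold). Dim arrays enter these means with their own reading. Among 31027 probes well above background on at least 6 arrays, these leads ranked 2, 5, 9 and 12. Among 14062 named genes, each by its brightest probe, they ranked 1, 2, 4 and 5. Without the amygdala arrays the leads were 7.10, 6.41, 6.25 and 5.91, in the same order of genes. Against the next highest region the margin was smaller. It was 3.29 for Myo1e, 4.59 for Tgm5 and 3.77 for Itga1 over the olfactory bulb, and 5.59 for Nexn over the hippocampus.

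The lead was present in each genotype. Within WT arrays it was 6.81 for Myo1e, 7.08 for Tgm5, 6.18 for Itga1 and 6.12 for Nexn, and within KO arrays 7.64, 6.27, 6.47 and 5.84. Without the amygdala arrays these were 6.88, 6.81, 6.26 and 6.12 within WT and 7.32, 6.01, 6.23 and 5.70 within KO. Over all 12 arrays Pearson's r between the probes was 0.987 for Myo1e and Itga1, 0.892 for Myo1e and Tgm5, and 0.901 for Tgm5 and Itga1. Over the 10 arrays outside striatum it was 0.974, 0.721 and 0.638. Nexn correlated with the other 3 at 0.770 to 0.908 over 12 arrays and at 0.01 to 0.16 over the 10. On the 8 arrays outside both striatum and amygdala, r was 0.972 for Myo1e and Itga1, 0.760 for Myo1e and Tgm5, 0.672 for Tgm5 and Itga1, and -0.27 to -0.09 for Nexn with the other 3. Myo1e and Itga1 thus followed each other outside striatum, whereas Nexn did not follow them there. These correlations are descriptions. The points share the array scaling, and the striatum arrays were the reason for choosing the genes.

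The other probes of Myo1e and Itga1 did not show the lead. Myo1e probe A_51_P406583 was well above background on all 12 arrays and read -2.43 and -2.34 in striatum, -1.69 and -1.71 in olfactory bulb, -1.78 and -1.69 in prefrontal cortex, -2.24 and -2.41 in amygdala, -2.26 and -2.04 in hippocampus, and -2.43 and -2.42 in hypothalamus. Its striatum arrays were among the lowest, and its striatal lead was -0.32, which turned to 0.18 with normexp background correction. The third Myo1e probe, A_51_P185141, was above background on 5 arrays only, in neither striatum array, and was left out of the fits. It read between -6.11 and -3.08, with the highest value on the hippocampus KO array.

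Itga1 probe A_52_P459929 was not well above background on the striatum arrays, where it read -3.98 and -4.10. On the other 10 arrays it lay between -4.76 (hypothalamus KO) and -3.69 (olfactory bulb WT), so its highest array was not a striatal one and its lead was 0.17, or 0.86 with normexp. The 2 probes of Itga1 and the 3 of Myo1e therefore disagreed, and the deposited files hold no probe sequences to say which part of each transcript they report. Of the 7 probes, 6 passed the filter and 4 had both striatum arrays above the 10 others. Of all probes fitted, 21.7% did.

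Genes with more than 1 fitted probe put this disagreement in context. There were 4359 such named genes, and for each the highest striatal lead was set beside the next highest. Of 7 genes with a highest lead of at least 5, the next probe had a lead of at least 1 in 1 gene and a smaller one in 6, Myo1e and Itga1 among the latter. With a highest lead of at least 2, the next probe reached 1 in 64 of 114 genes. The 5 striatal projection neuron markers with more than 1 probe and a highest lead of at least 2 all reached it. Their leads were 5.22 and 4.84 for Pde10a, a phosphodiesterase, 4.81 and 1.66 for Drd2, the D2 dopamine receptor, and 4.21 and 2.90 for Gng7, a G protein subunit. Penk, the enkephalin precursor, had 3.57 and 1.99, and Adcy5, an adenylate cyclase, had 2.35 and 2.14. The lead was thus seen by both probes in these 5 markers and by 1 probe each in Myo1e and Itga1. Agreement of probes was not general among genes with a striatal lead, as the 50 of 114 genes whose next probe stayed under 1 show. Tgm5 and Nexn have only 1 probe, so no such check was possible for them.

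**Figure D2:**
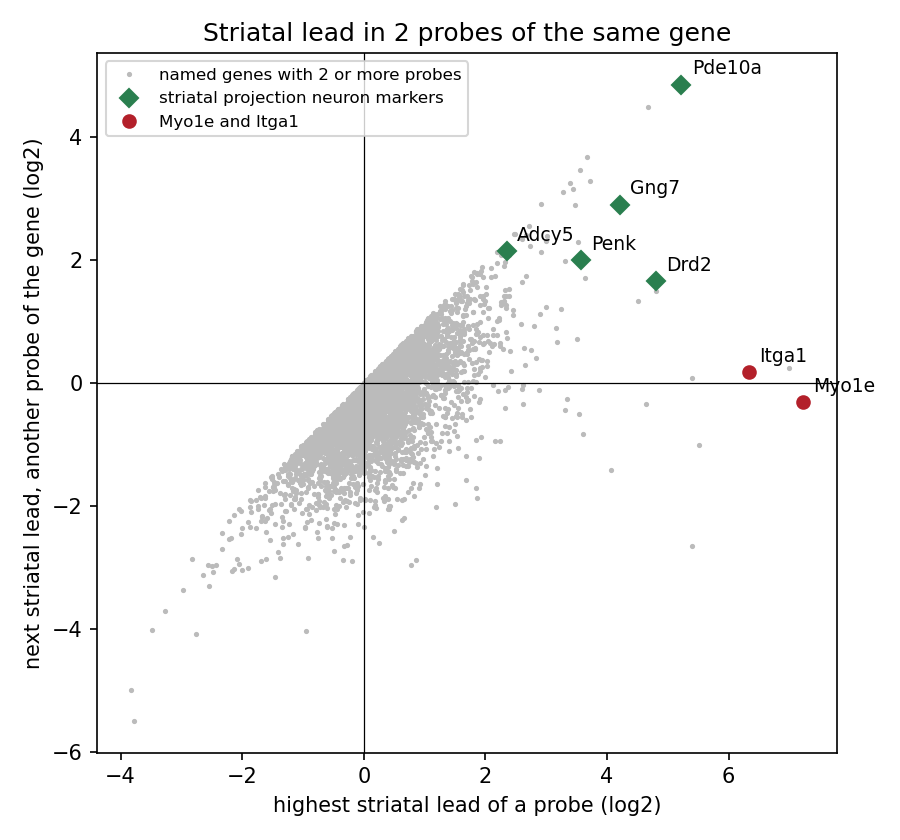
Highest striatal lead of a probe (x axis, log2) against the next highest lead of another probe of the same gene (y axis, log2), with 1 point per named gene that has 2 or more fitted probes. The 5 striatal projection neuron markers lie at 1.66 or more on the y axis, while Myo1e (7.22, -0.32) and Itga1 (6.33, 0.17) lie near 0.

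RNA added from outside the samples also read highest on the striatum arrays. The array carries 10 spike-in probes that detect labelled control transcripts (E1A) added to each sample. Their median level, on the same scale, was 4.50 on striatum WT and 3.58 on striatum KO, and between 1.56 and 2.49 on the other 10 arrays. Over 12 arrays Pearson's r with this spike-in level was 0.743 for Myo1e, 0.860 for Tgm5, 0.800 for Itga1 and 0.931 for Nexn. Over the 10 arrays outside striatum it was 0.08, -0.04, 0.11 and 0.13, and over the 8 of these that are not amygdala arrays -0.09, -0.23, -0.08 and -0.28. The spike-in level was therefore high on the same 2 arrays as the 4 genes. On the other 10 arrays it spanned only 1.56 to 2.49, so r there can hardly show a link. In olfactory bulb it was 1.92 and 1.58. The part of the dim striatum arrays in the leads of 63.1-fold to 149-fold was not tested.

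**Figure D3:**
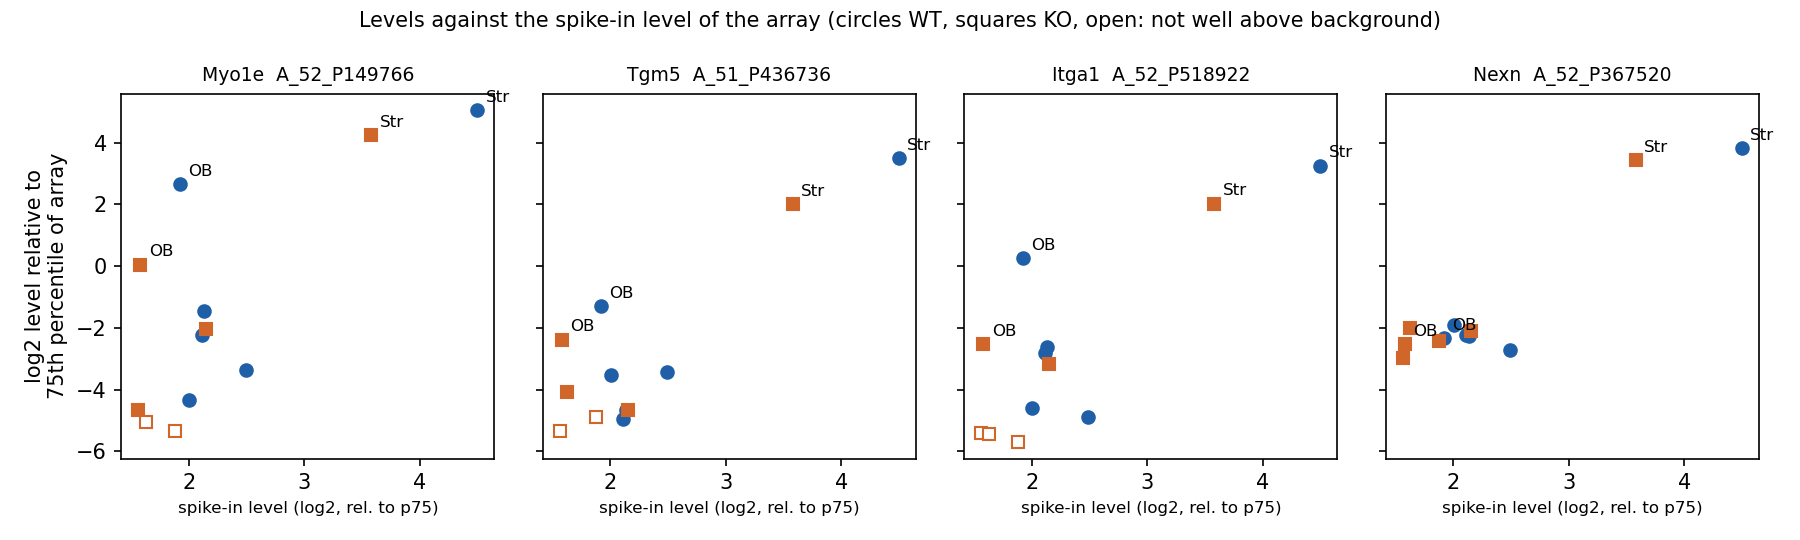
Level of the leading probe of each gene (y axis, log2 relative to the 75th percentile) against the median level of the 10 spike-in probes on the same array (x axis, same scale), with 1 point per array, circles for WT, squares for KO and open symbols where the spot was not well above background. The striatum arrays stand apart on both axes. The olfactory bulb arrays (OB) stand above the remaining regions for Myo1e, Tgm5 and Itga1 at a spike-in level of 1.58 to 1.92, for Itga1 KO only just.

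The comparison of KO with WT was not used to choose the genes. Within a region it rests on 1 array per genotype, so it has no replicate check, and the error given is the spot error of the scanner software. For Myo1e probe A_52_P149766 the KO minus WT difference was -2.61 ± 0.20 (spot error) in olfactory bulb, -3.20 ± 0.30 in amygdala, -0.82 ± 0.20 in striatum and 0.21 ± 0.21 in hypothalamus. In amygdala, genotype cannot be told apart from the tissue on the WT array, which carried hypothalamus markers. This limit holds for every amygdala difference below. In prefrontal cortex the KO array was not well above background and the level was at least 3.12-fold lower, and in hippocampus at least 1.40-fold lower. Such bounds set the measured array against the lowest signal well above background on the dim one. Where the dim reading was higher, as for Tgm5 below, it was used instead and the fold is no bound. This Myo1e probe thus read lower on KO in 5 of 6 regions, while A_51_P406583 did so in 2. Myo1e lies on chromosome 9, as the deleted Il18 does, 169 tested genes apart. Any part of this linkage in the Myo1e difference was not tested.

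For Tgm5 the difference was -1.09 ± 0.21 in olfactory bulb, -1.50 ± 0.20 in striatum, -0.56 ± 0.30 in hippocampus and 0.31 ± 0.35 in hypothalamus. By the dim KO readings it was 2.71-fold lower on KO in prefrontal cortex and 1.58-fold lower in amygdala. These 2 folds are no bounds, and the spot errors of the differences were 0.38 and 0.46 in log2. For Itga1 probe A_52_P518922 the difference was -2.77 ± 0.21 in olfactory bulb, -1.23 ± 0.20 in striatum and -0.36 ± 0.22 in hypothalamus. On KO this probe was at least 6.98-fold lower in amygdala, 1.18-fold in hippocampus and 1.09-fold in prefrontal cortex. The hypothalamus, where both arrays of all 3 probes were measured, showed the smallest differences measured on both arrays.

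Nexn showed differences of -0.71 ± 0.22 in amygdala, -0.38 ± 0.20 in striatum, -0.20 ± 0.21 in olfactory bulb, -0.09 ± 0.21 in hippocampus, 0.16 ± 0.21 in hypothalamus and 0.30 ± 0.22 in prefrontal cortex. Both directions occurred, and the difference in striatum was small beside the striatal lead of 5.98. Of the further probes, Myo1e A_51_P406583 stayed between -0.17 and 0.22 in all 6 regions. Itga1 A_52_P459929 lay between -0.76 and -0.03 in the 5 regions where both arrays measured it. Myo1e A_51_P185141 was 2.46-fold higher on KO in hippocampus, the only 2-fold higher value among the 7 probes.

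Counted by a 2-fold rule over probes measured on both arrays, 3 of 6 member probes were lower on KO in olfactory bulb, where 0.605% of all measured probes were. In striatum 2 of 5 were, against 0.816%, and in amygdala 1 of 4, against 5.50%. None of 4 was 2-fold lower in prefrontal cortex (3.0%), none of 5 in hippocampus (1.10%) and none of 6 in hypothalamus (0.608%). This count leaves out probes whose KO array was too dim to measure. Among them were Myo1e in prefrontal cortex and Itga1 in amygdala. Their bounds, at least 3.12-fold and 6.98-fold lower, exceed the 2-fold rule. Tgm5 in prefrontal cortex was 2.71-fold lower by its dim reading, which is no bound. The amygdala values carry the limit of the WT array given above. The olfactory bulb count came from the probes of Myo1e, Tgm5 and Itga1 that carry the lead. The striatum count came from those of Tgm5 and Itga1. The authors' deposited table of KO over WT ratios lists 20 of these values, which differed from those computed here by at most 0.0137 in log2.

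**Figure D4:**
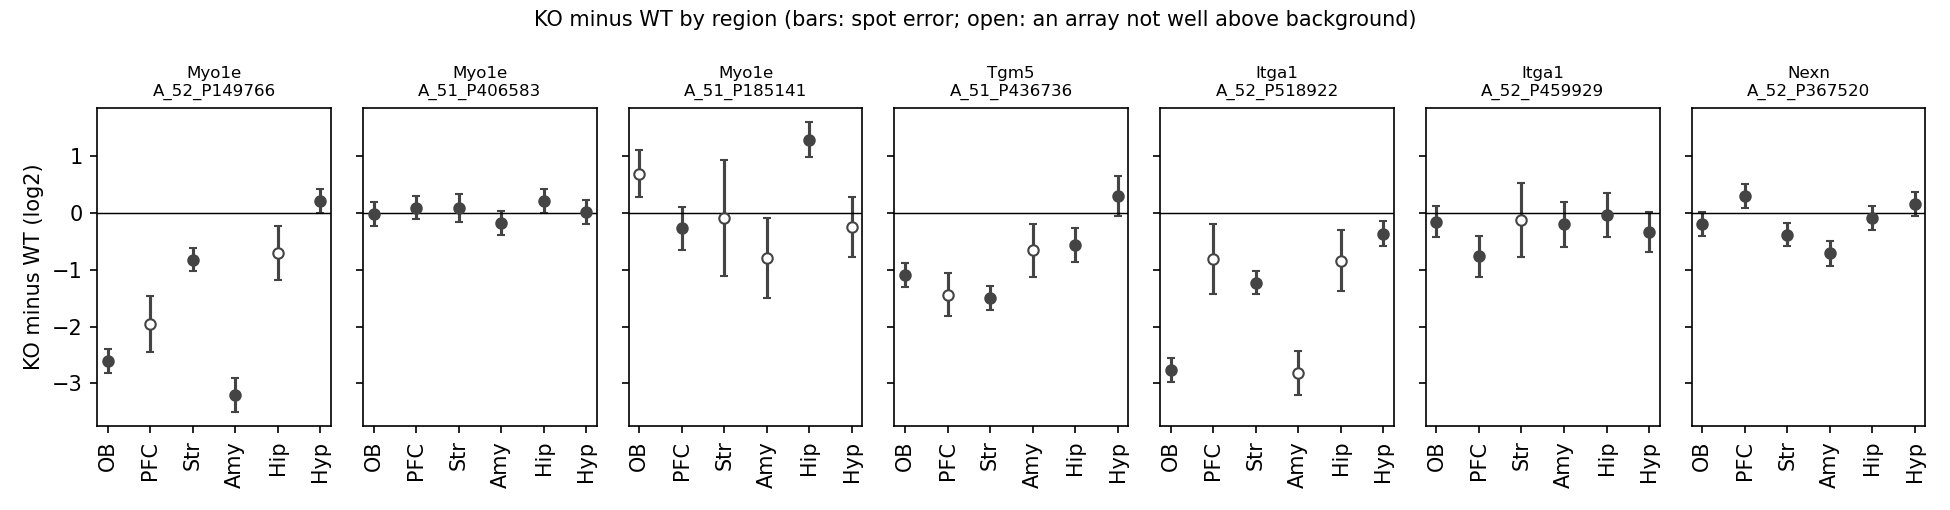
KO minus WT difference in log2 by region for each of the 7 probes, with bars for the spot error of the scanner software and open symbols where at least 1 of the 2 arrays was not well above background. The leading probes of Myo1e, Tgm5 and Itga1 lie below 0 in 5 or 6 regions, Nexn stays between -0.71 and 0.30, and Myo1e A_51_P406583 stays near 0.

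Across regions, with the region as the repeated unit, none of the 6 fitted probes passed limma's test at an adjusted p of 0.05. Calls were made for 14 of 31027 probes, which is 0.0451%. The estimate was -1.51 (SE 0.45, adjusted p = 0.112) for Myo1e A_52_P149766, -0.82 (SE 0.24, adjusted p = 0.106) for Tgm5 and -1.47 (SE 0.37, adjusted p = 0.0908) for Itga1 A_52_P518922. It was -0.15 (SE 0.13, adjusted p = 0.497) for Nexn, 0.04 (SE 0.06, adjusted p = 0.737) for Myo1e A_51_P406583 and -0.27 (SE 0.10, adjusted p = 0.159) for Itga1 A_52_P459929. At an unadjusted p under 0.05, 4 of the 6 were lower on KO, namely both Itga1 probes and the leading probes of Myo1e and Tgm5, as were 12.8% of all probes. The leading Itga1 probe read lower on KO in 6 of 6 regions, as did 8.62% of all probes with a value in each region, dim readings included. The other Itga1 probe read lower in the 5 regions where both arrays measured it. Those of Myo1e and Tgm5 that carry the lead were lower in 5 of 6, and 25.9% of all probes were lower in at least 5. The labels do not say whether the same 5 mice gave all regions of a genotype, so the tests speak of agreement between regions and not of the spread between mice.

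Without the amygdala arrays the estimates were -1.17 (limma adjusted p = 0.209) for Myo1e, -0.86 (adjusted p = 0.197) for Tgm5, -1.20 (adjusted p = 0.179) for Itga1 and -0.04 (adjusted p = 0.851) for Nexn. The spike-in level also differed between the genotypes. It differed most in striatum, by -0.92 (KO minus WT), then by -0.61 in prefrontal cortex, -0.57 in amygdala, -0.38 in hippocampus and -0.34 in olfactory bulb, and by 0.04 in hypothalamus. It was thus lower on KO in the same 5 regions as the leading probes of Myo1e and Tgm5, and its part in their differences was not tested. Over the 6 regions, Pearson's r of the KO minus WT difference with that of the spike-in level was 0.864 for Tgm5, 0.429 for Nexn, 0.354 for Myo1e and 0.229 for Itga1. The 75th percentile of the intensity was higher on the KO array in those 5 regions, by 0.12 to 0.38 in log2, and lower by 0.07 in hypothalamus.

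The KO minus WT difference in striatum was set against that in the other 5 regions, and no member probe passed in this fit either. The extra difference in striatum was 0.83 (limma adjusted p = 0.833) for Myo1e, -0.81 (SE 0.59, adjusted p = 0.623) for Tgm5, 0.29 (adjusted p = 0.939) for Itga1 and -0.28 (adjusted p = 0.808) for Nexn. Without the amygdala arrays it was 0.44 for Myo1e, -0.80 for Tgm5, -0.04 for Itga1 and -0.43 for Nexn, with limma adjusted p from 0.457 to 0.989, so the sign for Itga1 turned. With all arrays none of them had an unadjusted p under 0.05, while 4313 of 31025 probes did. By adjusted p, 1.08% of the 31025 were called. The extra difference in amygdala was -2.03 (SE 1.00, limma adjusted p = 0.456) for Myo1e, -1.61 (adjusted p = 0.479) for Itga1, -0.67 (SE 0.27, adjusted p = 0.370) for Nexn and 0.20 (adjusted p = 0.920) for Tgm5, where 0.219% of 30999 probes were called. Nexn was the member with an unadjusted p under 0.05 there, at 0.0473, also from limma, and 4106 of 30999 probes were under 0.05 too. A difference of the genotypes that is particular to striatum or amygdala was thus not shown for these genes.

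The named genes whose pattern over the 12 arrays was most like each member were found by Pearson's r. For Myo1e these were Gnl2 (0.994), Dok2 (0.986), Ttc8 (0.984), Pou2f1 (0.983) and Pdpk1 (0.982). For Itga1 they were Gnl2 (0.985), Mtif2 (0.984), Pdpk1 (0.983), Pinx1 (0.983) and Ttc8 (0.978), so 3 genes were shared with Myo1e. Most of these had a far smaller lead than the members, from 0.79 for Gnl2, a nucleolar GTPase, to 1.77 for Ttc8. Pdpk1, a kinase upstream of Akt, and Pinx1, a telomerase inhibitor, had leads of 5.40 and 3.51.

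For Tgm5 the nearest genes were Tbx2 (0.994), Gtf3c2 (0.990), Helb (0.989), Olfr821 (0.988) and Ubr2 (0.987), with leads from 0.65 (Ubr2) to 2.47 (Olfr821, an olfactory receptor gene). For Nexn they were Edc4 (0.991), Ktn1 (0.990), Gm136 (0.989), Ecsit (0.987) and Gnal (0.986). Gnal encodes the G protein alpha subunit that couples dopamine D1 receptors to adenylate cyclase in striatum, and its lead was 3.72. None of the 18 measured striatal projection neuron markers was among the 5 nearest genes of any member.

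The relatives of the 4 genes had smaller leads. Because the 4 were chosen by their lead, this order was largely fixed beforehand and carries no test. Of 6 class I myosins on the array, 5 were fitted, with a median lead of 0.68 in which Myo1e itself counts. The lowest was that of Myo1c at -0.19. Of 8 transglutaminase family genes 7 were fitted, with a median of 0.43. After Tgm5 came Tgm3, an enzyme of skin and hair, at 0.72, and Tgm4 was the lowest of those measured on both striatum arrays at 0.43. Over all 31027 probes the median lead was 0.05, and 12.6% had a lead of at least 1.

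Of 23 integrin subunits 20 were fitted, with a median lead of 0.34. Of these, 8 were above all other arrays in striatum, Itga1 among them, as were 20.8% of all named genes. Itga9 followed Itga1 at 2.77 and Itga5, the fibronectin receptor subunit, had 2.39, while Itga8 was the lowest of those measured on both striatum arrays at -1.17. Itgb1, the partner of integrin alpha 1, read lower in striatum, at -0.55, so the partner did not share the pattern. The 10 collagens and laminins bound by this receptor had a median of -0.42, from 1.03 for Col16a1 to -0.99 for Col13a1 among the 9 measured on both striatum arrays. Of 15 Z-disc and actin cross-linking proteins 12 were fitted, with a median of 0.55, and Actn2, the alpha-actinin 2 of muscle and of dendritic spines, came after Nexn at 2.78. Of those measured on both striatum arrays Tcap, a cap of the titin filament, was lowest at 0.17. In none of these 5 lists did a gene pass limma's test of KO against WT, and by 1 probe per gene 0.0234% of 25677 genes and transcripts were called lower on KO and 0.0156% higher. At an unadjusted p under 0.05, 1 of 5, 2 of 7, 3 of 20, 3 of 10 and 2 of 12 were lower on KO and none was higher, while 12.8% of all probes were lower and 12.3% higher at that p. The lists hold the members themselves, except the collagens and laminins.

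Markers of other cell types in the brain had smaller median leads than the 4 genes, which again largely follows from the choice of the genes. The median lead was 0.56 for 9 endothelium markers, 0.32 for 9 pericyte and smooth muscle markers, -0.14 for 8 microglia markers, -0.44 for 7 astrocyte markers, 0.84 for 8 oligodendrocyte markers, -0.86 for 9 choroid plexus markers and -1.38 for 8 meningeal fibroblast markers. The summed linear level of the endothelium markers was 30.5 to 33.3 on the striatum arrays and 13.9 to 26.0 on the others, and that of the pericyte and smooth muscle markers 27.7 to 33.2 against 17.5 to 23.6. Cldn5, Pecam1 and Cdh5, which define endothelium, had leads of 0.37, 0.57 and 1.21, while Tek and Abcb1a had -0.04 and -0.24. The smooth muscle genes Acta2 and Tagln had -0.59 and 1.74, and Cnn1, Rgs5 and Vtn had -0.14, -0.29 and -0.06. The rest of that list, Pdgfrb, Kcnj8, Abcc9 and Myh11, had 0.80, 0.67, 0.49 and 0.32. Bright genes weigh most in the sums, with Flt1 at 4.19 and Tagln at 3.77 (mean log2 level in striatum). Both vascular lists thus had a positive median lead, with single markers in both directions. The part of these markers in the leads of the 4 genes was not tested. Among the striatal projection neuron markers, Rgs9, a regulator of G protein signalling, had the largest lead, at 6.54, and Ido1 had 5.58. The summed linear level of all 18 markers was 799.7 to 873.7 on the striatum arrays and 47.5 to 118 on the others. Adora2a, the adenosine receptor of D2-type neurons and a defining marker, had a lead of 0.23.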

How the data were processed

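Expression was measured on 12 one-colour Agilent arrays (Cy3), 1 for each of 6 regions and 2 genotypes, from 400 ng of total RNA of 5 pooled mice. The deposited intensity values are spot signals of Agilent Feature Extraction 9.5.3.1, background-subtracted within each array and not scaled between arrays, per the file headers. A ratio of KO over WT per probe and region, deposited by the authors, was used only beside the values computed here. Control spots and spots marked as outliers were left out, between 61 and 143 per array, and no spot was saturated. The 75th percentile of log2 processed intensity was subtracted from each array. The number of arrays limits the precision.

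Accessions were matched to RefSeq names of GRCm38.p6, which named 22951 of 41174 probes (55.7%). Probes well above background on at least 6 of 12 arrays were fitted with limma 3.58.1 (R 4.3.3) on genotype and region, the region being the block, with Benjamini-Hochberg adjustment over all probes fitted. The residual degrees of freedom were 4 where striatum had its own term. The fits were tested on simulated data.

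The 4 genes, the gene lists and the tests were chosen with earlier results of these data known. Named genes were the members and the 5 most similar named genes of each. Also named were the highest and lowest lead of each family list and the 3 largest striatal marker leads. Itgb1, Itga5, the endothelium, pericyte and smooth muscle genes and Adora2a were named after their values were seen. Some genes that this rule names are not reported here. Alternatives were median and quantile scaling, normexp background correction with an offset of 50, the filter, the variance model, 1 probe per gene and leaving out each region. Leaving the amygdala arrays out of the leads within a genotype and of the correlations was added after seeing the data. The mean spot signal was not used here, so normexp started from the median signal.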

Additional observations from a re-analysis of the deposited data

Results flagged for a closer look

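The direction of the KO minus WT difference was not the same in all regions for 2 probes, by more than the spot error. For Myo1e A_52_P149766 it was 0.21 in hypothalamus, against -2.61 in olfactory bulb, -0.82 in striatum and -3.20 in amygdala. The positive value exceeds its spot error of 0.21 only by a margin lost in rounding. For Nexn A_52_P367520 it was 0.30 in prefrontal cortex, against -0.38 in striatum and -0.71 in amygdala. In striatum its unscaled intensity was 2938 (WT) and 2939 (KO), while the 75th percentile was higher on KO by 0.38 in log2. The spot error does not cover this scaling between arrays. With 1 array per region and genotype, the differences between these regions were not tested as pairs.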

How the results depend on the processing

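Of the member probes, none of which was called across regions, 1 passed the threshold under an alternative. That was Itga1 A_52_P459929 with normexp, at -0.22 (limma adjusted p = 0.0401; range over its alternatives 0.0401 to 0.287). Adjusted p ranged from 0.0715 to 0.275 for the leading Myo1e probe, 0.0546 to 0.270 for Tgm5, 0.0547 to 0.223 for that of Itga1 and 0.278 to 0.851 for Nexn. The striatal lead ranged from 3.29 to 7.22 for Myo1e, 4.59 to 6.68 for Tgm5, 3.77 to 6.33 for Itga1 and 5.30 to 5.98 for Nexn, and from -0.68 to 0.18, -1.24 to 0.97 and -0.28 to 0.86 for Myo1e A_51_P406583, Myo1e A_51_P185141 and Itga1 A_52_P459929. For the 4 leading probes it was lowest against the next region except for Nexn, where normexp gave the lowest value.

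The counts over all probes moved more. Across regions the 14 calls became 2231 with normexp, 810 among probes above background on all 12 arrays and 960 with a trended and robust variance, and leaving out 1 region gave 1 to 10. For striatum the 334 calls became 572 with quantile normalization, 34 with normexp and 72 with the filter on all 12 arrays. For amygdala the 68 calls became 44 with quantile normalization, 428 with normexp, 106 with no filter and 177 with a trended and robust variance. The cause was not tested. Scaling by the median moved the share of probes lower on KO from 52.8% to 40.5% across regions, from 45.0% to 66.3% in the striatum fit and from 51.3% to 30.9% in the amygdala fit, where the median of all probes moved from -0.01 to 0.18 in log2. WT and KO arrays are paired by region, and this pairing is the block in every fit; the labels give no replicate numbers to pair by. The dim striatum arrays limit what can be said of probes near background there.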
